A study of Rattus norvegicus with 66 samples.

Results

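The 8 genes described here, Tcf7l2, Lef1, Gbx2, Slc17a6, Prkcd, Rora, Ntng1 and Lhx9, are markers of the thalamus, which lies directly under the dorsal hippocampus. They were taken by symbol from the 37777 rows of the gene count tables, with the row of most counts where a symbol had several, and all 8 passed the filter on low counts together with 17367 genes in all, themselves included. The list was selected on the correlation of its levels across these pups and with Pvalb, so that levels and correlations below are descriptions without a test. RNA of left and right dorsal hippocampus was sequenced from 64 Long Evans rat pups (41 males and 23 females) on postnatal day 6, in 66 libraries of 10644138 to 86206550 counts (median 20740650). The dams had received Aroclor 1254 (Aro, a mixture of polychlorinated biphenyls) or bisphenol A (BPA) with the chow, at 0.5 or 5 mg/kg, or chlorpyrifos (CPF, an organophosphate insecticide) by subcutaneous injection at 1 or 3 mg/kg. The male groups were feeding controls (CONF, 4 pups), injection controls (CONSC, 5), Aro0.5 (4), BPA0.5 (4), CPF1 (4), Aro5 (6), BPA5 (7) and CPF3 (7). The female groups were CONF (5), CONSC (5), Aro5 (5), BPA5 (4) and CPF3 (4). CONSC dams were injected with vehicle, named as saline in the sample descriptions and as DMSO in the study's methods. By the study's methods the frozen tissue dissected was not hippocampus alone, since some neighbouring cortex was taken with it.

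The thalamus relays sensory and other input to the cortex, and most of its relay neurons are glutamatergic. Tcf7l2 and Lef1 encode DNA-binding partners of beta-catenin through which Wnt signals act on genes in the nucleus. In the forebrain Tcf7l2 marks postmitotic neurons of thalamus and habenula. Gbx2 and Lhx9 encode homeodomain transcription factors of the developing thalamus, and Rora encodes an orphan nuclear receptor. Slc17a6 encodes VGLUT2, the vesicular glutamate transporter typical of thalamic neurons, and Ntng1 encodes netrin-G1, a membrane-anchored adhesion protein of thalamocortical axons. Prkcd encodes protein kinase C delta, used as a marker of adult relay nuclei. Pvalb encodes parvalbumin, the calcium buffer of a class of inhibitory interneurons, and is also made by neurons of the thalamic reticular nucleus.

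Promoter stretches are shown for 3 members whose levels bear on the comparison below: Slc17a6 and Ntng1, which moved together across pups, and Prkcd, which did not move with them. Each holds the 250 bases before the annotated start of the gene, 5′ to 3′ on the gene's strand, from RefSeq in build GRCr8. This build is not the one used for counting (Rnor_6.0). Capitals mark matches, on either strand, to 5 motifs. The TCF/LEF motif was searched as CTTTGAA. It was also searched with its last base as CTTTGAT. The ROR motif was searched as AGGTCA. The homeodomain motif was searched as TAATTA, and the TATA box as TATAAA. No matches overlap in the stretches shown.
Slc17a6 (chr1:110348197-110348446, plus strand): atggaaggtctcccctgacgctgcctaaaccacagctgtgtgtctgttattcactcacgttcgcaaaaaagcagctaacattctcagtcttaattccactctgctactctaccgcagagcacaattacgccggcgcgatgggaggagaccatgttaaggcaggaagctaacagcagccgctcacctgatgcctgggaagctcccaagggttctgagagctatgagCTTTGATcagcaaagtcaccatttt
Ntng1 (chr2:200515032-200515281, minus strand): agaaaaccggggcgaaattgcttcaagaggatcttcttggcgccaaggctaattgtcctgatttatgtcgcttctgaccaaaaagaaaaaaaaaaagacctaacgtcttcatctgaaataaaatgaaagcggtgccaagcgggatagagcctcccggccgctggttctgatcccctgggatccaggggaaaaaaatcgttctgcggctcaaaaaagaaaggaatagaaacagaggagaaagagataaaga
Prkcd (chr16:5805840-5806089, minus strand): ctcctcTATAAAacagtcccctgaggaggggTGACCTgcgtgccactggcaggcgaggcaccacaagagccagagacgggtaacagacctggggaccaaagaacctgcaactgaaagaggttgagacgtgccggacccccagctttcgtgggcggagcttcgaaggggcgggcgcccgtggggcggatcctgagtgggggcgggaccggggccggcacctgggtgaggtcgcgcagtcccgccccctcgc
Of the members, 7 were found in the promoter table, Lhx9 being the exception. CTTTGAT was present in 1 of these 7 promoters, that of Slc17a6, and in 3.15% of all 33469 promoters. CTTTGAA was present in 0 of 7 and in 4.68% of all, and TAATTA in 0 of 7 and in 4.86% of all. AGGTCA and TATAAA were each present in 1 of 7, in both cases Prkcd, against 14.1% and 12.9% of all promoters. The 250 bases of Gbx2 held 38 CG pairs and those of Tcf7l2 held 32, against 9 for Slc17a6, 11 for Ntng1 and a median of 5 over all promoters.

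Levels of most members differed widely between pups of the same group. Tcf7l2 ran from 23.7 counts per 1000000 counts of the library (CPM) in male Aro5 116-6y to 707 CPM in male CPF3 38-1y, a 29.9-fold range with a median of 382 CPM over 64 pups. Over the same pups the highest level exceeded the lowest 20.3-fold for Lhx9, 19.6-fold for Gbx2 and 12.3-fold for Slc17a6. The ratio was 8.7 for Ntng1, 7.65 for Lef1 and 3.34 for Rora. Prkcd had the narrowest range, from 17.7 to 36.5 CPM or 2.06-fold. Because these are bulk libraries, fewer cells of a type and less RNA per cell cannot be told apart.

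Among male controls Tcf7l2 was at 216, 292, 297 and 481 CPM in CONF and at 232, 233, 356, 390 and 641 CPM in CONSC. Low-dose males had 357, 552, 587 and 632 CPM in Aro0.5, 228, 306, 377 and 466 CPM in BPA0.5, and 152, 306, 419 and 521 CPM in CPF1. The 4 Aro0.5 pups thus lay in the upper part of the control range, with 1 of them below 390 CPM, and no low-dose pup was above the highest control. The lowest, median and highest values were 23.7, 214 and 511 CPM in Aro5 males, 128, 449 and 526 CPM in BPA5 males, and 87.5, 415 and 707 CPM in CPF3 males. Pups below every male control numbered 3 of 6 in Aro5, 2 of 7 in BPA5 and 2 of 7 in CPF3, while 1 CPF3 pup was above every control. In females the CONF pups had 215, 230, 261, 430 and 549 CPM and the CONSC pups 203, 251, 377, 456 and 477 CPM. Treated females had 219, 287, 387, 406 and 510 CPM in Aro5, 310, 395, 450 and 705 CPM in BPA5, and 42.1, 473, 500 and 512 CPM in CPF3. Every treated group overlapped the controls of its sex, and pup 38-5x stood far below the other CPF3 females.

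**Figure D1:**
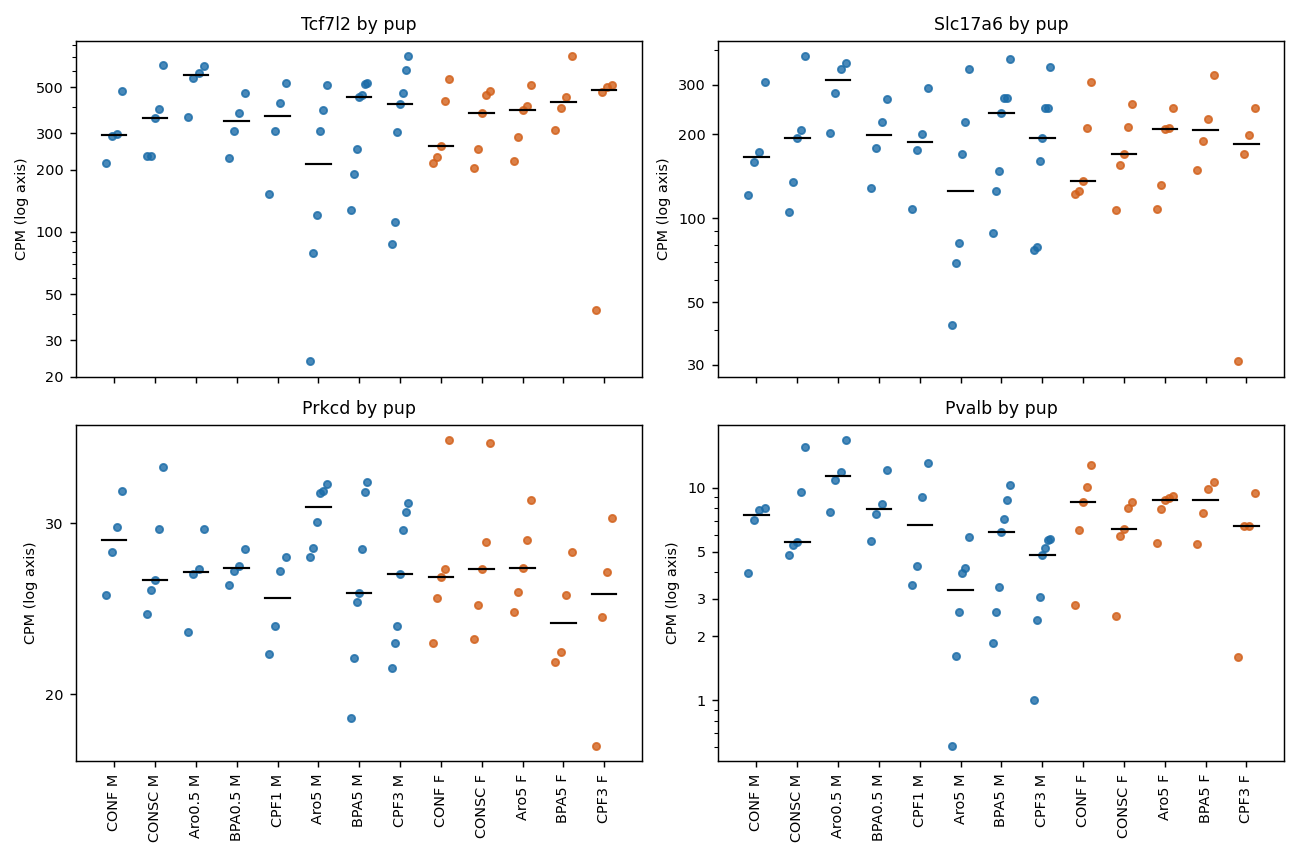
CPM of Tcf7l2, Slc17a6, Prkcd and Pvalb in each pup (points, logarithmic axis; blue males, M, and orange females, F) by group, with the group median as a black line. Tcf7l2 spans 23.7 to 707 CPM and Prkcd only 17.7 to 36.5 CPM. For every gene shown, each treated group overlaps the controls of its sex. Pvalb in Aro0.5 males (7.72 to 16.7 CPM) lies wholly above Aro5 (0.61 to 5.88 CPM) and CPF3 males (0.998 to 5.72 CPM). These treated groups were not compared by a test, and the share of all genes separated in this way was not computed. Library titles of Aro0.5 males are also spelled differently from those of Aro5 and CPF3 males, as described below.

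Group medians were ordered similarly for most members, with Aro5 males at one end and Aro0.5 males at the other. The median of Tcf7l2 went from 214 CPM in Aro5 males to 570 CPM in Aro0.5 males, 2.66-fold. The same groups were lowest and highest for Lef1 (19.1 and 56.9 CPM), Slc17a6 (125 and 311 CPM), Ntng1 (44.7 and 124 CPM) and Lhx9 (40.9 and 93.2 CPM). For Gbx2 the lowest median was again that of Aro5 males (5.15 CPM), and the highest was that of CPF3 females (13.6 CPM). Rora was lowest in CONSC females (25.6 CPM) and highest in Aro0.5 males (47.3 CPM). Prkcd had the opposite end, with its highest median in Aro5 males (31.2 CPM) and its lowest in BPA5 females (23.7 CPM). For each of the 8 genes, all 12 pairs of neighbours in the order of medians overlapped in their ranges. Neighbours in a sorted order are close by construction, and the share over all genes was not computed. The count therefore does not bear on groups farther apart in the order.

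Inside groups, the pooled SD of log2 CPM was 0.95 for Tcf7l2, 0.90 for Gbx2, 0.83 for Lhx9, 0.77 for both Lef1 and Ntng1, and 0.76 for Slc17a6. The median SD over all 17367 genes was 0.23 and the 95th percentile 0.64, so that these 6 members were among the most variable genes by the pooled SD. Groups differed in spread. The highest level of Tcf7l2 exceeded the lowest 2.97-fold in male controls and 2.7-fold in female controls. Over single groups this ratio ran from 1.77 (Aro0.5 males) to 21.6 (Aro5 males). An SD of controls alone was not computed. Among 547 genes with a mean within 0.5 log2 units of its own, Tcf7l2 had the largest SD (rank 1), and Slc17a6 ranked 2 of 1129. Rora, with an SD of 0.40, ranked 117 of 2685 genes of like level. Prkcd, with an SD of 0.22, ranked 789 of 2567 and lay below the median SD of all genes.

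The low values of different members fell in the same pups. Of the 8 members, 7 were among their 5 lowest values in female CPF3 38-5x, 6 in male Aro5 116-6y, and 5 each in males Aro5 120-2y and CPF3 44-2y. In CPF3 38-5x Slc17a6 was at 30.8 CPM, Ntng1 at 17.2 CPM, Rora at 16.6 CPM and Lhx9 at 6.08 CPM, against medians over all pups of 194, 74.7, 31.6 and 63.5 CPM. In Aro5 116-6y Gbx2 was at 0.898 CPM (25 counts) and Lhx9 at 5.71 CPM (159 counts). High values coincided as well. In the control male CONSC 8-4y, 6 members were among their 5 highest values, with Slc17a6 at 380 CPM, Ntng1 at 149 CPM and Lef1 at 65.5 CPM. In the same pup Prkcd was at 26.2 CPM, near its median of 26.9 CPM.

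**Figure D2:**
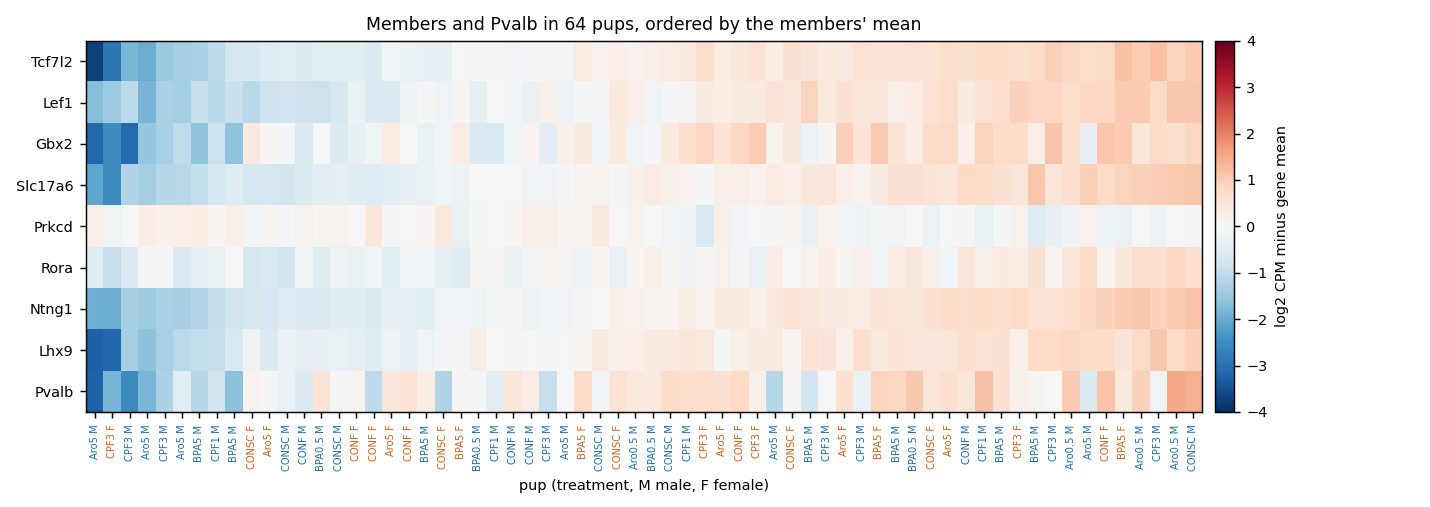
Log2 CPM of the 8 members and Pvalb minus each gene's mean (colour, blue low and red high) in 64 pups, ordered from left to right by the mean of the members. Pups of controls and of treated groups are mixed along the order except at its low end. By Tcf7l2 the lowest control, female CONSC 9-1x, ranks 10 of 64, and every pup below it is from a treated group. The 7 member rows other than Prkcd shift from low to high together with Pvalb, and the Prkcd row is pale and does not follow.

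Across the 64 pups, Pearson's r of log2 CPM (normalised by TMM, with a prior count of 2) had a median of 0.86 over the 21 pairs of the 7 members other than Prkcd, with a range of 0.48 to 0.98. The 7 pairs with Prkcd gave r of -0.40 to -0.17. The points share groups and litters, and the list was chosen for this pattern. Tcf7l2 had r = 0.91 with Lef1 (rho 0.95), 0.90 with Gbx2 (rho 0.84), 0.95 with Slc17a6 (rho 0.95) and 0.70 with Rora (rho 0.79). With each group's mean taken off, the median over the 21 pairs was 0.91 and the range 0.66 to 0.99. Inside the male libraries of 1 name form, r of the 21 pairs ran from 0.53 to 0.99 (form A, 21 libraries) and from 0.73 to 0.998 (form B, 21 libraries). The form is how the title of a male library is spelled, with a capital Y for the sex in form A and a small y in form B. No batch or run is labelled, and whether the spelling goes with one is not known. All high-dose male libraries and 1 of 10 male control libraries have form B, and the other male libraries have form A. Without the 2 pups farthest from the median, CPF3 38-5x and Aro5 116-6y, the range was 0.40 to 0.98.

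When each member was set against the mean of the other 7, the likeness was high for all but Prkcd. Tcf7l2 (r = 0.98), Slc17a6 (r = 0.97) and Ntng1 (r = 0.98) each ranked 1 among 17360 genes. Lhx9 ranked 4 (r = 0.95), Lef1 9 (r = 0.92), Gbx2 73 (r = 0.84) and Rora 185 (r = 0.74). Prkcd ranked 16446 (r = -0.38), in the lowest part of all genes. Its negative r was stronger in males, at -0.57 with Tcf7l2, than in females, at -0.09. Among male libraries this r was -0.25 in form A and -0.66 in form B, which holds all high-dose males. Neither the difference between the sexes nor that between the forms was tested. In these libraries Prkcd therefore did not move with the other markers of its list.

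**Figure D3:**
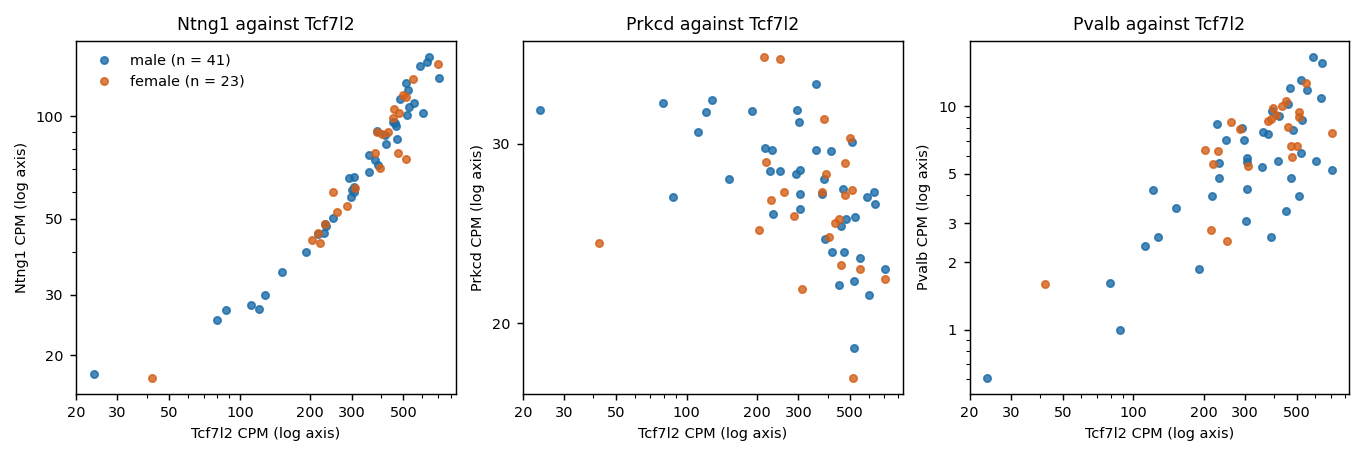
CPM of Ntng1, Prkcd and Pvalb (vertical, logarithmic) against CPM of Tcf7l2 (horizontal, logarithmic) in 41 males (blue) and 23 females (orange). Ntng1 lies on a narrow band (r = 0.96), Prkcd slopes downward with wide scatter (r = -0.39) and Pvalb slopes upward with a wider scatter than Ntng1 (r = 0.79).

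Pvalb varied with the members and ranked 134 of 17359 genes by likeness to their mean (r = 0.78, rho 0.65). It had r = 0.86 with Gbx2, 0.79 with Tcf7l2 and 0.75 with Lhx9, but 0.44 with Rora and -0.38 with Prkcd. The lowest Pvalb level, 0.61 CPM, was that of Aro5 116-6y, the pup with the lowest Tcf7l2. Its next lowest was 0.998 CPM in CPF3 44-2y, where Tcf7l2 was at 87.5 CPM. With the group means taken off r was 0.79, and inside the male libraries it was 0.88 (form A) and 0.81 (form B). Pvalb as a percentage of Tcf7l2 in the same pup had a median of 2.38% in male controls (range 1.51 to 2.74%) and 2.16% in low-dose males (1.39 to 3.67%). It was 1.97% in Aro5 (0.676 to 3.48%), 1.65% in BPA5 (0.759 to 2.84%) and 1.02% in CPF3 males (0.737 to 2.13%). In control N2-2y, the male with a library of each form, the percentage was 1.8% in the library of form A and 1.88% in that of form B. The control female N4-3x, with a library of each form as defined for females, had 2.98% in form A and 2.35% in form B. Females had 2.3% in controls (0.994 to 3.28%) and 2.24% in the high-dose groups (1.08 to 3.81%).

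Among genes outside the list, 24 of 17359 (0.138%) had r above 0.9 with the mean of the members. The highest were Zmat4, a zinc finger gene, with r = 0.97 and levels of 8.82 to 74.6 CPM, and Prkch, the gene of protein kinase C eta, with r = 0.96 and levels of 15.6 to 78.9 CPM. Prkch is a relative of Prkcd and followed the members where Prkcd did not. The predicted gene LOC103692458 (r = 0.96) and the homeobox gene Shox2 (r = 0.95, 0.251 to 17.1 CPM) came next. The 20 nearest genes also held Wnt9b (r = 0.92) and Wnt3 (r = 0.91), which encode Wnt ligands, Fzd10 (r = 0.92), a Frizzled receptor, and Vangl1 (r = 0.94), a planar cell polarity gene. Hsd11b2 (r = 0.94), which inactivates corticosterone, and Agtr2 (r = 0.91), an angiotensin receptor, had levels of 1.67 to 18.5 and 0.245 to 6.06 CPM. The others were Slitrk6 (r = 0.94), Adamts15 (0.93), Pkib (0.93), Syt13 (0.92), LOC689757 (0.92), Ptpn3 (0.92), Synpo2 (0.92), Pcbd1 (0.91), Tcp10b (0.91) and Nrn1 (0.91). At the other end stood Thsd4 (r = -0.83), Chst15 (-0.82), Lzts1 (-0.82), Arpp21 (-0.81) and Foxp1 (-0.80). Arpp21 and Foxp1 are abundant in striatal and cortical projection neurons.

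Of 16 other thalamic genes, 6 had r above 0.8 with the mean of the members, and the list had a median r of 0.67. The serotonin transporter gene Slc6a4, which thalamocortical neurons express transiently in rodent pups, had r = 0.88 and levels of 0.419 to 47.1 CPM. Synpo2 had r = 0.92, Rgs16 0.84 and Plcb4 0.82. By contrast, Cacna1g (r = 0.24), Hcn4 (0.09), Six3 (0.08) and Tnnt1 (-0.16) did not follow. Among 6 habenular genes matched, 2 had r above 0.8, the acetylcholine receptor subunit gene Chrna3 (r = 0.83) and the orphan receptor gene Gpr151 (0.81). The transcription factor gene Pou4f1 had 0.79 and Chrnb4 0.71. Lrrc55 (0.39), at a median of 119 CPM, and Nwd2 (0.20) were not close to the members. The habenula adjoins the thalamus above it. Hypothalamic and zona incerta genes were sparse, with a summed level of 0.601 to 25.7 CPM, of which Pmch reached 20.7 CPM in 1 pup.

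Hypothalamic and zona incerta genes had a median r of 0.36. Choroid plexus and striatal genes went against the members. All 7 choroid plexus genes, led by the transthyretin gene Ttr at 722 to 4370 CPM, had r of -0.68 to -0.48. All 6 striatal genes had r of -0.68 to -0.48, with the opioid precursor gene Penk running from 16.4 to 383 CPM. The 9 neocortical genes were mixed, from -0.61 for Cux1 and -0.59 for Lmo4 to 0.50 for Tshz2. The 6 oligodendrocyte genes lay between -0.23 and 0.00433. A list of 9 Wnt pathway genes and targets had a median r of 0.04. Its summed level lay between 596 and 744 CPM in all pups, beside 149 to 1440 CPM for the summed members. Most of the Wnt sum was Ctnnb1, the gene of beta-catenin, at 459 to 610 CPM. The sum therefore says little about the other genes, such as Fzd3 (4.01 to 16.9 CPM) and Lrp6 (48.5 to 75.2 CPM). Within the list the feedback gene Nkd1 had r = 0.58, Axin2 0.22 and Ctnnb1 0.39.

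The hippocampal label was checked on 10 matched genes, with a summed level of 244 to 775 CPM. The 8 of them above the filter on low counts had a median r of 0.27, from -0.47 for Mpped1 (94.3 to 605 CPM) to 0.86 for Prox1 (22.9 to 182 CPM). Prox1, a marker of dentate granule cells, is also expressed by thalamic cells in development. The marker Fibcd1 was listed at 0 in every pup, also in the largest library (86206550 counts). Whether its row can receive reads was not tested, so it does not bear on the hippocampal label. Zbtb20 was low, at 0.835 to 8.07 CPM. The relatives of the members mostly did not follow them. Slc17a7, the vesicular glutamate transporter gene of cortical and hippocampal neurons, had r = 0.13, and Slc17a8 had 0.29. Rorb had -0.25, Ntng2 -0.04, Tcf7 -0.20, Tcf7l1 0.13, Lhx2 0.26, Gbx1 -0.13 and Prkce -0.22, whereas Prkcq had 0.68 and Prkch 0.96.

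**Figure D4:**
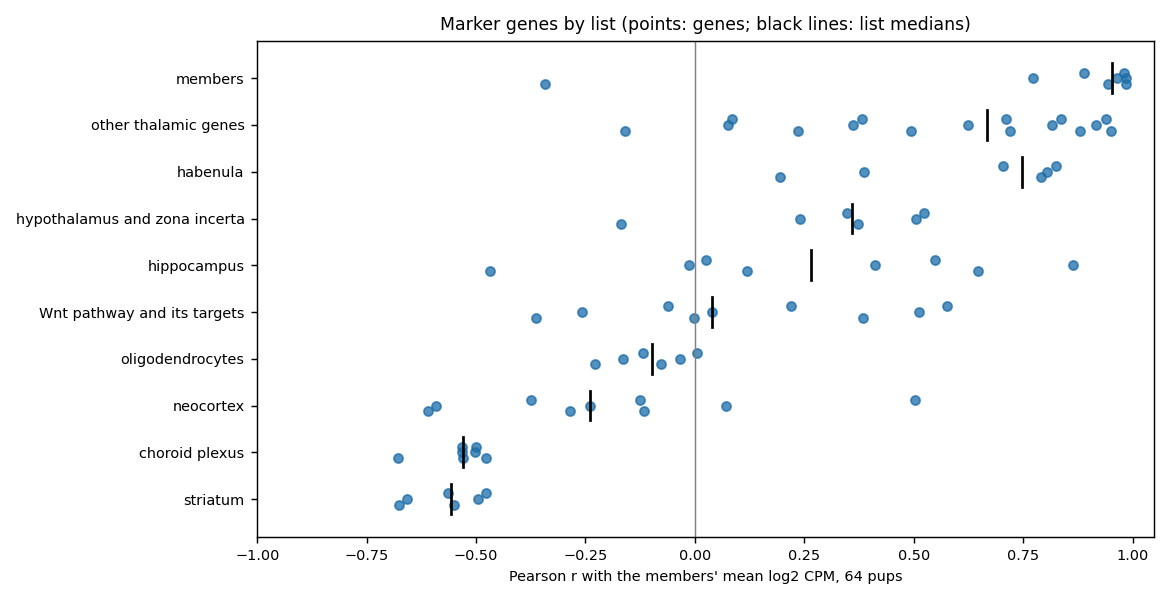
Pearson's r with the mean log2 CPM of the members over 64 pups (horizontal) for each gene (points) of 10 marker lists (rows), with the list median as a black line. Members include themselves in the mean. Members, other thalamic and habenular genes lie mostly to the right, with Prkcd at -0.34, and choroid plexus and striatal genes all lie to the left.

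Levels of the members did not go together in littermates. In 18 litters with pups of both sexes, deviations of brother and sister from their group means had r = -0.24 (rho -0.28) for the mean of the members and -0.19 (rho -0.23) for Tcf7l2. In litter 38 the brother had 707 CPM of Tcf7l2 and the sister 42.1 CPM, and in litter 79 the brother had 128 and the sister 705 CPM. The brothers Aro5 120-1y and 120-2y had 511 and 79.5 CPM, a 6.43-fold difference, with a 4.95-fold difference in Slc17a6 and 4.92-fold in Ntng1. Libraries with the same pup number were much closer. Those of female N4-3x carry different times of day in the labels, so that the number is what assigns them to 1 pup. Tcf7l2 was at 229 and 204 CPM in the libraries of form A and B of male N2-2y, and at 224 and 239 CPM in those of female N4-3x. Over the 8 members, the ratio of the library of form B to that of form A ran from 0.723 (Rora) to 1.28 (Gbx2) in N2-2y and from 0.881 to 1.2 in N4-3x. Neither the library total (r = 0.13) nor the time of day (r = -0.18) went closely with the mean of the members over 64 pups. A second row of Tcf7l2, with 7358 counts in all against 560889, had r = 0.84 with the row used.

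Treatment comparisons asked whether exposed pups differed from the controls of their sex, with CONF and CONSC combined as in the study. In low-dose males no member had an adjusted p under 0.05 by the quasi-likelihood test of edgeR (Benjamini-Hochberg). Over all 16139 genes, 0.124% were called in Aro0.5, 0.0434% in BPA0.5 and 0.0% in CPF1. In Aro0.5 males 6 of 8 members had an unadjusted p under 0.05, against 0 in BPA0.5 and 0 in CPF1 males. Over all genes 18.5%, 8.58% and 2.0% had one. The members other than Prkcd vary together across pups (median r 0.86) and were chosen for it, so their counts are not of independent genes. Lef1 had the largest estimate in Aro0.5, 0.91 on the log2 scale (SE 0.29 and adjusted p = 0.145 by edgeR), followed by Ntng1 (0.74, SE 0.29), Tcf7l2 (0.67, SE 0.28) and Slc17a6 (0.65, SE 0.28). Rora had 0.58 (SE 0.19, adjusted p = 0.149 by edgeR), Lhx9 0.53 (SE 0.23), Gbx2 0.44 (SE 0.26) and Prkcd -0.02 (SE 0.09). The members' median was 0.62, beside 0.003 over all genes tested. The count depended on a single control. Without CONSC 8-4y, the control with the highest Tcf7l2, Lef1 (1.13, adjusted p = 0.0282 by edgeR) and Rora (0.69, adjusted p = 0.0464 by edgeR) passed the threshold, while the adjusted p of Lef1 ran from 0.0282 to 0.494 and that of Rora from 0.0464 to 0.491 over all alternatives. Without this control 322 genes were called in all, against 20 with it. In BPA0.5 and CPF1 males the log2 fold changes of the members lay between -0.12 and 0.10 and between -0.17 and 0.15.

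High-dose males gave the same count, 0 of 8 members with an adjusted p under 0.05 in each treatment by edgeR, and 0 at an unadjusted p under 0.05. Of 16638 genes tested, 0.204% were called in Aro5, 0.234% in BPA5 and 0.174% in CPF3. Those with an unadjusted p under 0.05 made up 11.7% (Aro5), 9.16% (BPA5) and 12.5% (CPF3) of the genes. For 8 genes a count of 0 is close to these shares. The 34 genes called in Aro5 became 177 without Aro5 108-1y, 71 without CONF N2-2y and 632 with pups restricted to the study's time window (10.30 to 13.20 h). The 39 in BPA5 became 9 in that window. In Aro5 males the log2 fold change was -0.61 for Gbx2 (SE 0.46), -0.54 for Tcf7l2 (SE 0.48), -0.49 for Lhx9 (SE 0.42), -0.34 for Slc17a6 (SE 0.40) and -0.33 for Ntng1 (SE 0.40). It was -0.19 for Lef1 (SE 0.40), 0.06 for Rora (SE 0.20) and 0.13 for Prkcd (SE 0.11), with adjusted p values of 0.643 to 0.95 over the 8 members by edgeR. With single pups left out, Tcf7l2 went from -0.92 (without Aro5 120-1y) to -0.30 (without Aro5 116-6y), and the members' median of -0.34 from -0.69 to -0.14 without the same pups. The SE of Tcf7l2, 0.48, stood beside a median SE of 0.12 over all genes. In BPA5 and CPF3 males the estimates lay between -0.11 and 0.31 and between -0.09 and 0.28. With the name form of the library as a covariate, a fit that rests on the repeat libraries of N2-2y, the members' median moved from -0.34 to 0.35 (Aro5), from 0.04 to 0.78 (BPA5) and from 0.08 to 0.82 (CPF3), and 0 genes were called in all in each.

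**Figure D5:**
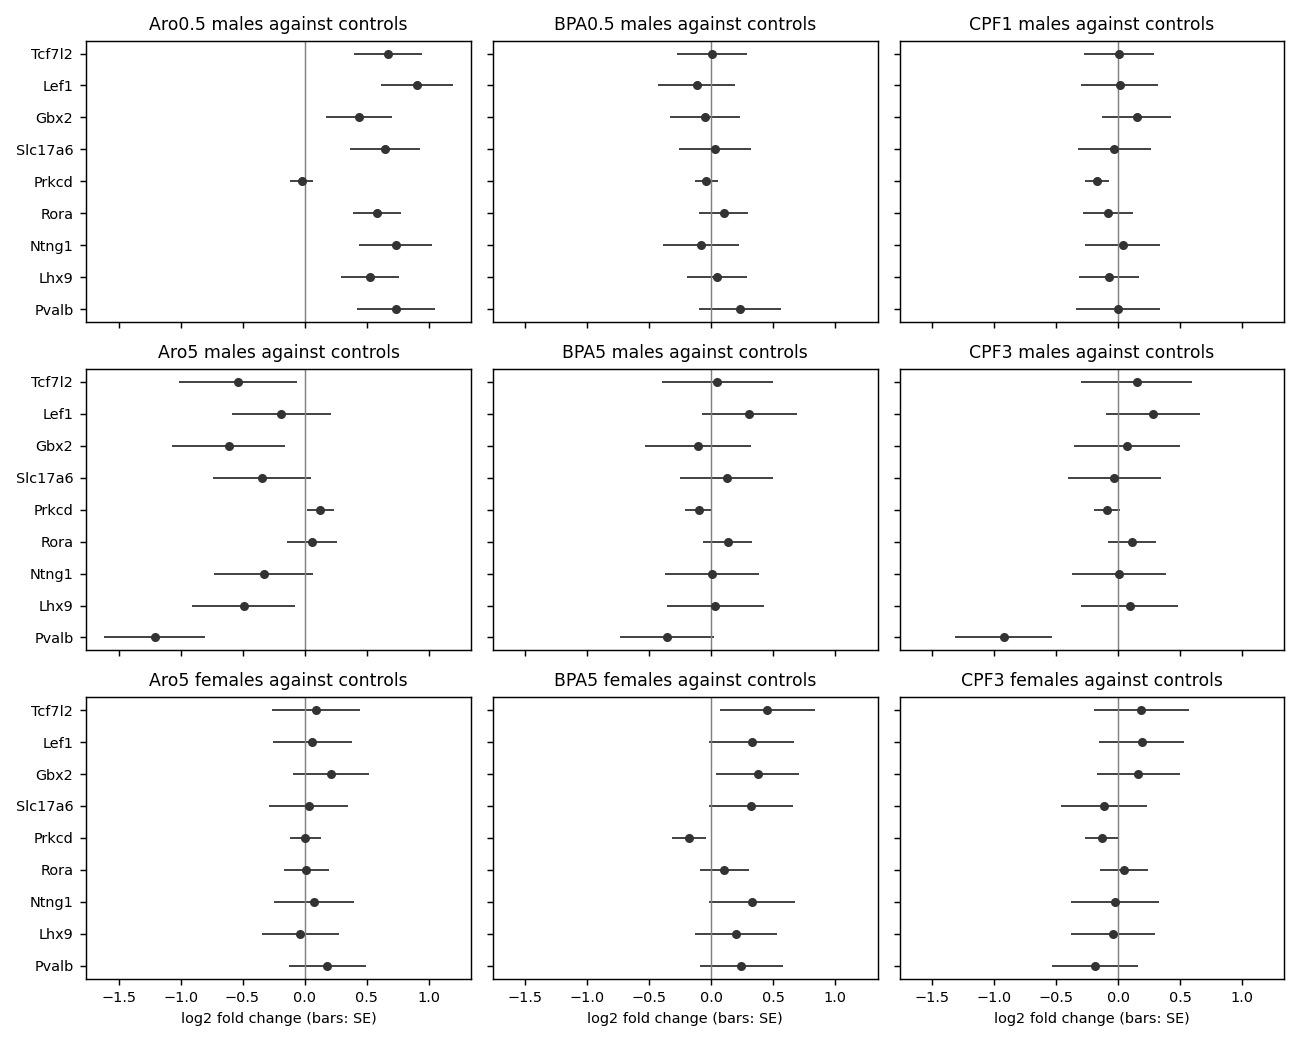
Log2 fold change against the controls of the same sex with its SE (horizontal bars) for the 8 members and Pvalb in 9 treatment comparisons. No gene shown has an adjusted p under 0.05, the members other than Prkcd lie to the right in Aro0.5 males, and Pvalb is farthest to the left in Aro5 (-1.21) and CPF3 males (-0.92).

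In females 0 of 8 members had an adjusted p under 0.05 by edgeR, with 0 at an unadjusted p under 0.05, and 0.0% of 16992 genes were called in each treatment. Over all genes 3.23% (Aro5), 4.08% (BPA5) and 8.79% (CPF3) had an unadjusted p under 0.05. Log2 fold changes lay between -0.04 and 0.22 in Aro5, between -0.18 and 0.45 in BPA5 and between -0.13 and 0.19 in CPF3 females. The interaction of sex and treatment was also called for 0 of 8 members, with 0 at an unadjusted p under 0.05, while 0.0984% (Aro5), 0.0405% (BPA5) and 0.0463% (CPF3) of 17282 genes were called and 8.92%, 2.79% and 5.6% had an unadjusted p under 0.05. Its estimates for the members, female minus male, lay between -0.13 and 0.81 in Aro5. DESeq2 called 0 members in each of these 12 comparisons, as did limma-voom in the 9 it was run for. Over all genes DESeq2 called 1.6%, 0.229% and 0.0% in Aro0.5, BPA0.5 and CPF1 males, and 0.625%, 0.409% and 0.511% in Aro5, BPA5 and CPF3 males. It called 0.00589%, 0.00589% and 0.0177% in Aro5, BPA5 and CPF3 females, and 0.197%, 0.0868% and 0.0926% in the interactions. None of the genes of the marker lists, the relatives or the 25 genes most and least like the members was called by edgeR in any of them. In Aro0.5 males all 20 of the most alike genes had an unadjusted p under 0.05 and a positive estimate, which their choice by likeness to the members carries with it. There the striatal list had a median log2 fold change of -0.87 and the choroid plexus list -0.55, with 5 of 6 and 5 of 7 genes at an unadjusted p under 0.05, beside 18.5% of all genes. Their part in the estimates of the members was not tested.

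Pvalb was followed with and without the members in the model. In high-dose males its log2 fold change was -1.21 in Aro5 (SE 0.41, adjusted p = 0.251 by edgeR), -0.36 in BPA5 (SE 0.38) and -0.92 in CPF3 (SE 0.39, adjusted p = 0.359 by edgeR). Aro5 males had a lowest, median and highest level of 0.61, 3.3 and 5.88 CPM, BPA5 males 1.86, 6.16 and 10.3 CPM, and CPF3 males 0.998, 4.8 and 5.72 CPM. Male controls had 3.97, 7.07 and 15.6 CPM, so that 3 pups of each treated group lay below every control. With the mean log2 CPM of the members as a covariate the estimates were -0.80 in Aro5, -0.43 in BPA5 and -0.97 in CPF3, with adjusted p values of 0.343, 0.541 and 0.119 by edgeR. The members were selected partly on their correlation with Pvalb in these pups, so the fit with them is a description, not an independent test. Over all alternatives the adjusted p ran from 0.0532 to 1.0 in Aro5 and from 0.119 to 1.0 in CPF3. With the name form as a covariate the estimate of Pvalb was -0.24 (Aro5), 0.61 (BPA5) and 0.05 (CPF3), a turn of direction in BPA5 and CPF3. In males the name form nearly coincides with the high doses, and what goes with the form and with the dose cannot be told apart for Pvalb.

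The mean log2 CPM of the members was also applied as a covariate to all genes in males, a fit added after the data were seen. The number of genes called in Aro0.5 went from 20 to 0, and those with an unadjusted p under 0.05 from 2988 to 1131 of 16139. Without the covariate, the time window also gave 0 called genes in Aro0.5 (1535 at an unadjusted p under 0.05) and controls of the same route gave 1 (1947). DESeq2 called 258. With the covariate the count of called genes went from 34 to 31 in Aro5, from 39 to 36 in BPA5, from 29 to 31 in CPF3 and from 7 to 8 in BPA0.5. Genes with an unadjusted p under 0.05 fell in number from 1953 to 1814 in Aro5, and rose from 1524 to 1699 in BPA5, from 2088 to 2291 in CPF3 and from 1384 to 1473 in BPA0.5. The count in Aro0.5 was also moved by single pups, to 322 without CONSC 8-4y and to 0 without Aro0.5 94-3y. Of the genes called in these male comparisons and in the interactions, 0 had an absolute r above 0.5 with the mean of the members once group means were taken off, against 8.47% of 17367 genes. A gene that varies with the members inside groups has a larger SE and is called less readily, so that this count is not independent of the calls.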

How the data were processed

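STAR and featureCounts were the authors' tools for alignment and counting on Rnor_6.0, and the deposited values are raw counts per gene and library of stranded mRNA. Versions and the strand setting are not given in the sources used here. Where a pup had 2 libraries, their counts were added. The members and marker lists, and the rule for named genes, were chosen with earlier results of these data known. Named genes are the members, Pvalb, their listed relatives, marker list genes, and the 20 genes most and 5 least like the mean of the members; those nearest to Prkcd were chosen after their values were seen. A gene of this rule is not reported here. Transcript lengths were not used, so CPM sums over lists and the percentage of Pvalb to Tcf7l2 serve to compare pups, not genes. Treated groups were compared with controls of their sex in edgeR 4.0.16 (TMM, filterByExpr, quasi-likelihood test, Benjamini-Hochberg adjustment, threshold 0.05), in 1 fit each for low-dose males, high-dose males, females, and both sexes with an interaction. The SE is the log2 fold change over the square root of F. The 64 pups came from 44 litters by the labels, and the tests treat littermates as separate pups. Alternatives were DESeq2 1.42.0, DESeq2's size factors, no filter beyond 1 count, the study's time window (10.30 to 13.20 h), controls of the same route, the library name form, a replicate block by litter in limma 3.58.1, and each pup left out. The edgeR fits were tested on simulated data. R 4.3.3, Python 3.11.15, numpy 2.4.6, pandas 2.3.3, scipy 1.17.1 and matplotlib 3.10.9 were used.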

Additional observations from a re-analysis of the deposited data

Results flagged for a closer look

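Of 117 combinations of a member or Pvalb with a group of 4 to 7 pups, 5 (4.27%) had a pup whose gap to the nearest other exceeded Dixon's 95% critical value, where chance gives about 1 in 20. In CPF3 females pup 38-5x had 42.1 CPM of Tcf7l2 against 473 to 512 CPM in the other 3, and 6.08 CPM of Lhx9 against 66 to 73.6 CPM. In CONSC males pup 8-4y had 65.5 CPM of Lef1 against 17.8 to 30.3 CPM, and 149 CPM of Ntng1 against 47.7 to 72.1 CPM. In Aro0.5 males pup 106-3y had 65.9 CPM of Lhx9 against 92.9 to 96.6 CPM.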

How the results depend on the processing

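The number of members called stayed at 0 in each comparison with controls under DESeq2, DESeq2's size factors, no filter beyond 1 count, the time window and controls of the same route, and in high-dose males with the name form covariate. The interaction was refitted with DESeq2, the time window and the block alone, with 0 called. With each pup left out it stayed at 0, except in Aro0.5 males, where it ranged from 0 to 2. With the litter as a replicate block (limma-voom over 52 pups of both sexes and 32 litters) 0 members were called in high-dose males, high-dose females or the interaction, and the estimate of Tcf7l2 in Aro5 males was -1.03 (adjusted p = 0.464 in limma). This block was fitted over both sexes, since too few pups of 1 sex share a litter. Litters are shared by pups of 1 treatment only, and the replicate numbers of the groups pair no samples.

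With the name form as a covariate the estimates in Aro5 males turned to 0.25 for Tcf7l2, 0.52 for Lef1, 0.55 for Slc17a6, 0.50 for Ntng1, 0.21 for Lhx9 and -0.00808 for Prkcd, and those of Pvalb to 0.61 in BPA5 and 0.0466 in CPF3 males. The members' median moved to 0.78 in BPA5 and 0.82 in CPF3 males. This fit compares the name forms through 1 pup, N2-2y, and the cause was not tested. Leaving out single pups turned the sign of Lef1 (-0.54 to 0.0412) and Rora (-0.14 to 0.16) in Aro5 males and of Prkcd in Aro0.5 males (-0.0973 to 0.0553).

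Counts over all genes are given beside their comparisons. The median r of the 28 pairs of members, 0.82, was 0.86 with group means taken off, 0.86 in females alone, 0.88 in male libraries of form B, 0.78 without the 2 farthest pups, 0.86 without Prkcd (added after the data were seen) and 0.80 to 0.83 with each pup left out. The r of Pvalb with the members' mean, 0.78, was 0.66 on linear CPM, 0.88 in male libraries of form A, 0.70 without the 2 farthest pups and 0.73 to 0.80 with each pup left out. Library totals in place of TMM gave 0.81 and 0.77. Gbx2 had as few as 21 counts in a pup, which limits its precision there.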

Other observations

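The genes nearest to Prkcd, looked up after the values were seen, were not those nearest to the other members. Over 64 pups Kcnv1 (r = 0.75) and Kcnh1 (r = 0.74), which encode potassium channel subunits, Map3k5 (r = 0.75), a stress-activated kinase gene, Bace2 (r = 0.75), a protease gene, and Ptk2b (r = 0.73), a calcium-responsive tyrosine kinase gene, were the first 5. The mean log2 CPM of the neocortical list had r = 0.52 with Prkcd, against -0.25 with the mean of the members. For the other thalamic genes these values were -0.45 and 0.91.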
